A study of Mus musculus with 8 samples.

Results

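The mammalian mitochondrial ribosome is built from a large and a small subunit, and its proteins are all encoded in the nucleus, translated in the cytosol and imported. Most of their genes carry the symbols Mrpl (large subunit) or Mrps (small subunit). The genes described here are the protein-coding genes of the count table whose GENCODE M21 symbol begins with Mrpl or Mrps followed by a digit. All 78 such genes were present among the 45706 gene identifiers of the table, and all 78 passed the filter on low counts that left 15289 genes for testing. By published structures of mammalian mitochondrial ribosomes, 51 of them encode large-subunit proteins (30 with a bacterial homologue, 21 specific to mitochondria) and 26 encode small-subunit proteins (16 and 10). Mrps18a and Mrps30 are counted in the large subunit, where their proteins sit despite the name. Mrps36 is named as a ribosomal gene, but its protein belongs to the oxoglutarate dehydrogenase complex and is not counted in either subunit.

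RNA sequencing measured transcript levels in whole hearts of 8-week-old male mice. The conditional knockout group (cKO, n = 4) had the genotype Elmsan1 fl/fl;aMHC-Cre+/-, in which the cardiomyocyte promoter of Myh6 drives Cre recombinase, so that the deletion is directed at cardiomyocytes and the other cell types of the heart are not targeted. The floxed group (n = 2) was Elmsan1 fl/fl without Cre, and the Cre group (n = 2) was aMHC-Cre+/- without floxed alleles, so that each allele of the cKO hearts is also carried by 1 control group. The study's title asks what loss of Elmsan1 in cardiomyocytes does to the heart. Elmsan1 encodes a subunit of a histone deacetylase complex. Levels are given as CPM, which are counts scaled to library size with TMM factors. Its own transcript was at 15.2, 15.5, 15.3 and 12 CPM in cKO hearts, against 27.6 and 25.6 CPM in floxed and 28.6 and 25.3 CPM in Cre hearts (log2 fold change -0.89, SE 0.11, edgeR adjusted p = 8.94e-05), and the groups did not overlap.

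Mitochondrial ribosomes translate only the few messenger RNAs of the mitochondrial genome, which encode membrane subunits of the respiratory chain and of ATP synthase. The heart has a high content of mitochondria, and inherited defects of several of these ribosomal proteins cause cardiomyopathy in humans. Promoters of genes for mitochondrial proteins are known in mammals for sites of the ETS family factor GABP (also called NRF2), of NRF1 and of YY1.

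Promoter windows of the genes were available from RefSeq (GRCm38.p6) for 69 of the 78 genes, each from 250 bases before to 50 bases after the annotated start. The 4 windows printed are those of a pair of genes that were higher and a pair that were lower in cKO hearts, chosen after their values were seen. They are the largest rises and falls among called genes with an ETS, NRF1 or YY1 motif match. A single window, with a start found in a GENCODE transcript, was also required. Mrpl54, Mrpl20 and Mrpl14 rose more than Mrps21, and Mrpl50 and Mrps31 fell more than Mrpl39, but no match was found for them. The windows thus show motif matches in place, not a trait of the largest changes. Capitals mark a match to the ETS core CCGGAAG (read here on the other strand, as CTTCCGG) in the first pair of sequences and a match to the palindromic NRF1 motif, whose 10 letters they spell, in the second pair. The windows lie at chr14:54426659-54426958 (plus strand, Mrpl52), chr3:95871465-95871764 (minus strand, Mrps21), chr3:94443086-94443385 (plus strand, Mrpl9) and chr16:84735195-84735494 (minus strand, Mrpl39), all in GRCm38.
Mrpl52: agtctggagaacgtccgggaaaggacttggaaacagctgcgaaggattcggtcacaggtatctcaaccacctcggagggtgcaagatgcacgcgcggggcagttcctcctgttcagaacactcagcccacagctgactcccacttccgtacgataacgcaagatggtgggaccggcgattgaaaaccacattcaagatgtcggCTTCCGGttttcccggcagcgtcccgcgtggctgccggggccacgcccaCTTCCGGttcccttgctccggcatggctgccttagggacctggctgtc
Mrps21: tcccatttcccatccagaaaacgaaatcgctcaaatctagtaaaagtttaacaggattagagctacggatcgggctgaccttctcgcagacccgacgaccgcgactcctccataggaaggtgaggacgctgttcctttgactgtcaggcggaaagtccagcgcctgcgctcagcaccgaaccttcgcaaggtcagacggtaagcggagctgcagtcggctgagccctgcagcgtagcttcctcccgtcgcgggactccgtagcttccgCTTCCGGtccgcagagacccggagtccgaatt
Mrpl9: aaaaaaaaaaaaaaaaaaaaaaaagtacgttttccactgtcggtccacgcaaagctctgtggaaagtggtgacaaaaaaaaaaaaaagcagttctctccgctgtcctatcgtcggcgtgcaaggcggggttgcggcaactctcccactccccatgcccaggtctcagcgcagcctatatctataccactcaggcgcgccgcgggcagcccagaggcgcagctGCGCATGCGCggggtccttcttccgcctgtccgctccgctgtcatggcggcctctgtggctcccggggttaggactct
Mrpl39: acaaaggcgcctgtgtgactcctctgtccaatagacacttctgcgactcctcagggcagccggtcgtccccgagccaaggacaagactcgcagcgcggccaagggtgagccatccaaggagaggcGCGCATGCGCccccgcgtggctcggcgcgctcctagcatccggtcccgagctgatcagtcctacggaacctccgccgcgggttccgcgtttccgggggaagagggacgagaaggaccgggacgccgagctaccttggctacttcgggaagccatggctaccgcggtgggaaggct

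In the Mrpl52 window the ETS core lies at bases -47 to -41 and again at 2 to 8, counted from the start, and in the Mrps21 window at 18 to 24. The NRF1 motif lies at -28 to -19 in the Mrpl9 window and at -125 to -116 in the Mrpl39 window. The Mrpl39 window lies wholly inside the GENCODE span of its gene (84717576 to 84735742, minus strand). Its RefSeq start is thus downstream of the GENCODE gene start. Over both strands, 26 of the 69 genes with a window held CCGGAAG (37.7%), against 18.5% of the 11206 tested genes with a window. The YY1 motif AAGATGGC was found for 12 genes (17.4%, against 4.89%) and the palindromic NRF1 motif for 3 (4.35%, against 2.15%). The 3 motifs were searched separately, so 1 window can hold several. By call in cKO against control hearts, the ETS core was present for 18 of 42 genes that were higher, 2 of 8 that were lower and 6 of 19 that were not called. The NRF1 motif was present for 0 of 42, 2 of 8 and 1 of 19 of these genes, and the YY1 motif for 6 of 42, 1 of 8 and 5 of 19. These matches are letters in a window of 300 bases, not measured binding.

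Most mitochondrial ribosomal protein genes had higher transcript levels in cKO hearts than in control hearts, by modest amounts. Of the 78 genes, 48 were higher and 8 were lower in cKO than in the average of both control groups, and 22 were not called (edgeR quasi-likelihood tests, Benjamini-Hochberg adjusted over all genes tested, adjusted p under 0.05). In this comparison 52.1% of all tested genes were called, 25.6% as higher and 26.5% as lower. The median log2 fold change of the 78 genes was 0.38 (range -0.70 to 1.10), and that of all tested genes 0.04. These genes have short transcripts, and among coding genes the share called higher was largest for the shortest principal transcripts. By class of that length, the share of these genes called higher was 92% under 1000 bp (coding genes 70.4%). From 1000 to under 2000 bp the shares were close, at 42.9% and 41.1%. From 3000 to under 5000 bp they were 46.2% and 17.6%. The median log2 fold change was below that of coding genes under 1000 bp (0.68 against 0.73) and from 1000 to under 2000 bp (0.19 against 0.31). It was above that of coding genes in the longer classes, which hold few genes. These differences were not tested. With an offset fitted in each library to the length and GC content of transcripts, the split was 32 higher and 14 lower on the longest transcript of each gene (median 0.06), and 22 higher and 20 lower on the principal transcript (median -0.01). All p-values reflect the spread between single hearts.

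**Figure D1:**
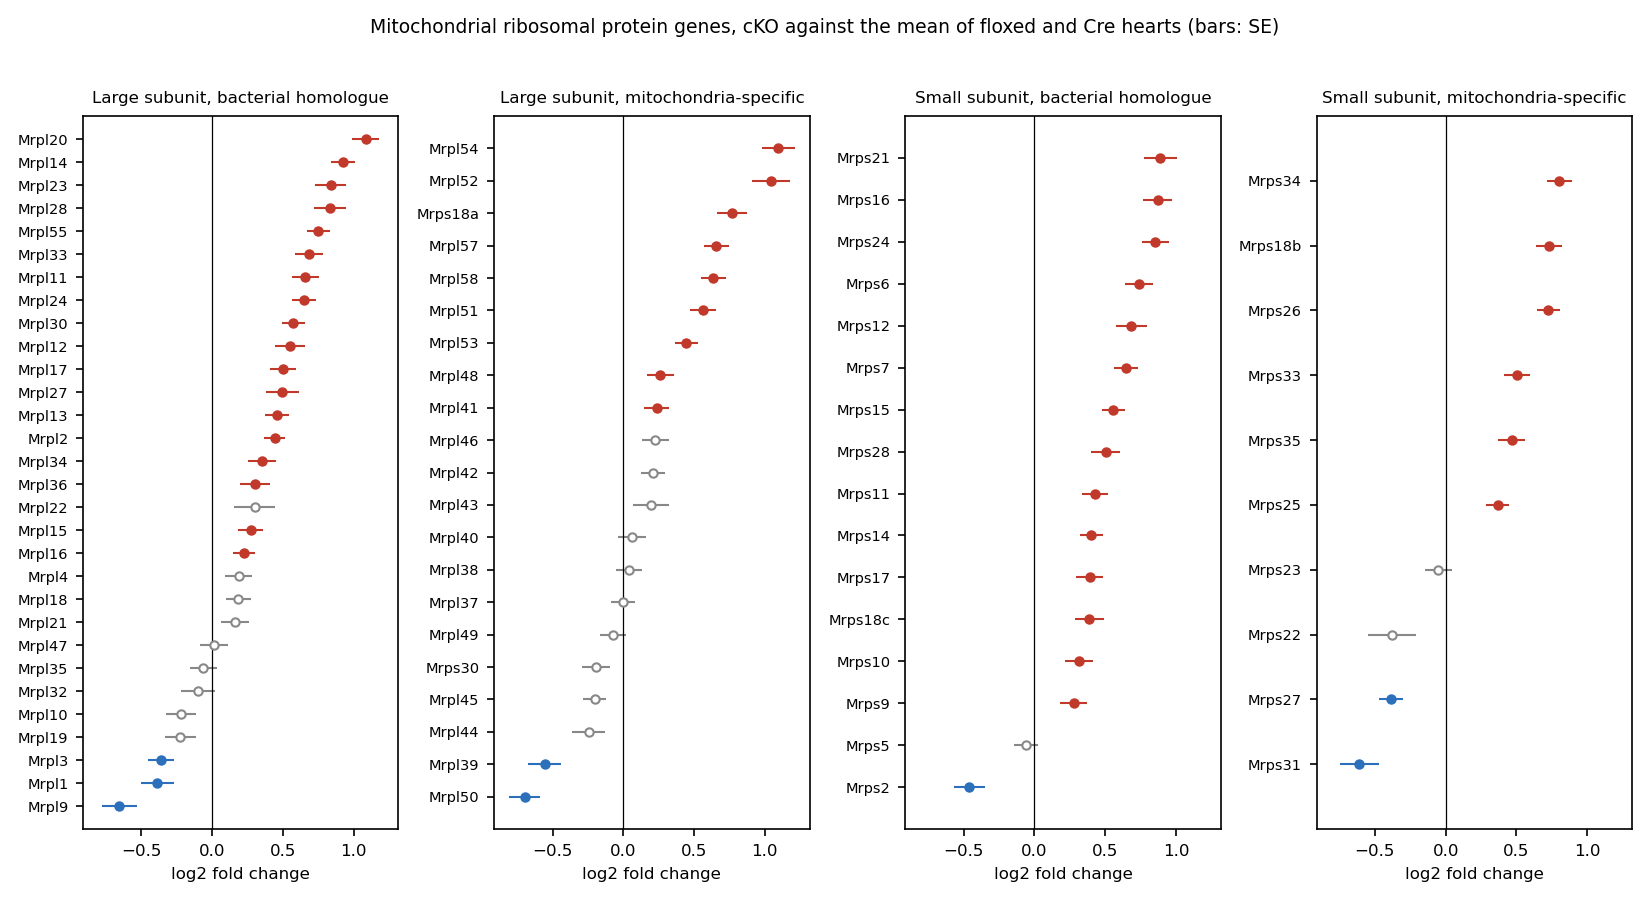
Log2 fold change of the mitochondrial ribosomal protein genes in cKO against the mean of floxed and Cre hearts (x axis, no offset), 1 row per gene, in 4 panels by subunit and by bacterial homology. Bars are SE, filled red points are genes called higher, filled blue points genes called lower and open points genes not called; the range runs from -0.70 (Mrpl50) to 1.10 (Mrpl54), and Mrps36 (0.49) is not drawn because it belongs to neither subunit.

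Added over the 78 genes, transcript levels were 4058, 4177, 4370 and 4557 CPM in cKO hearts, against 3360 and 3337 CPM in floxed and 3185 and 3483 CPM in Cre hearts. Every cKO heart was above every control heart. The mean sum was 4291 ± 219 CPM in the 4 cKO hearts and 3341 ± 122 CPM in the 4 control hearts (± SD), a ratio of 1.28. Large-subunit genes summed to 2772 to 3085 CPM in cKO hearts, against 2224 to 2416 CPM in controls, and small-subunit genes to 1219 to 1397 CPM in cKO hearts, against 911 to 1014 CPM in controls. The small-subunit sum was the one that stood further apart, so that the ratio of the large-subunit to the small-subunit sum was lower in every cKO heart (2.17 to 2.29; mean 2.23 ± 0.056) than in any control heart (2.35 to 2.44; mean 2.40 ± 0.041; SD, n = 4 each). These sums are not per length.

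**Figure D2:**
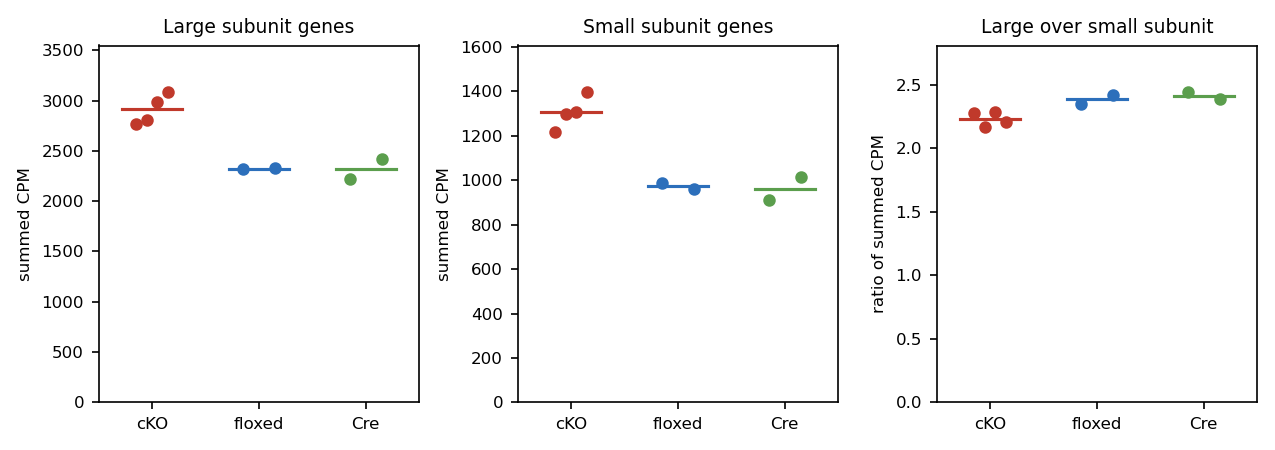
Summed CPM of the 51 large-subunit genes (left), of the 26 small-subunit genes (middle) and their ratio (right) in cKO, floxed and Cre hearts; each point is 1 heart, each line a group mean, and the y axes start at 0. Both sums are higher and the ratio is lower in all 4 cKO hearts than in all 4 control hearts.

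All 78 genes were detected in every heart. The median gene had a mean of 44.8 CPM in cKO hearts (range 10.4 to 199) and 38.1 CPM in controls (13.5 to 172), and estimated counts per gene and library ran between 146 and 5833. The SE of the log2 fold changes was 0.075 to 0.17 (median 0.095). Per kb of principal transcript, Mrpl42 had the highest level (298 CPM per kb in cKO and 258 in controls). In the order of the control levels, Mrps21 came next (243 in cKO and 131 in controls). Mrpl33 (178 in cKO and 111 in controls) and Mrpl30 (155 in cKO and 104 in controls) followed. This order depends on the transcript chosen. The principal transcript was 666 bp for Mrpl42 and 478 bp for Mrpl33, and the longest was 3277 bp and 2741 bp. The lowest were Mrpl17 (5.42 CPM per kb in cKO and 3.83 in controls), Mrpl19 (4.36 in cKO and 5.10 in controls) and Mrpl32 (4.95 in cKO and 5.31 in controls). For 49 genes every cKO heart was above every control heart and for 10 every cKO heart was below, while 19 overlapped; among all tested genes 23.4% and 25.9% were separated in these directions. Mrpl36 was the 1 gene called higher with overlapping groups.

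Among the 30 large-subunit genes with a bacterial homologue, 18 were higher, 3 lower and 9 not called (median log2 fold change 0.33). With the offset on the longest transcript, 11 were higher and 3 lower (median 0.05), beside 21.3% and 24% of all tested genes. Without an offset, Mrpl20 and Mrpl14 rose most. Mrpl20 (ENSMUSG00000029066, GRCm38 chromosome 4, 155802878 to 155809975, plus strand) encodes the homologue of bacterial L20, a protein needed early in large-subunit assembly in bacteria. Its level was 39.1, 46.5, 45.2 and 47.7 CPM in cKO hearts, against 21.2 and 19.6 CPM in floxed and 20.7 and 22.8 CPM in Cre hearts (log2 fold change 1.08, SE 0.09, edgeR adjusted p = 2.14e-05; 2.12-fold). With both offsets it stayed called higher (log2 fold change 0.67 and 0.48). Mrpl14 (ENSMUSG00000023939, GRCm38 chromosome 17, 45686322 to 45698495, plus strand) had 79.9, 89.8, 84.4 and 82.3 CPM in cKO hearts, against 45.2 and 42.2 CPM in floxed and 42 and 48.1 CPM in Cre hearts (log2 fold change 0.92, SE 0.08, edgeR adjusted p = 2.4e-05; 1.90-fold). It was no longer called with the offset on the longest transcript (0.05) or on the principal transcript (-0.05). Mrpl28 had 93.3, 122, 107 and 131 CPM in cKO hearts, against 67.6 and 64 CPM in floxed and 57.1 and 65.7 CPM in Cre hearts (log2 fold change 0.83, SE 0.11, edgeR adjusted p = 0.000151), and it too was not called with either offset (0.19 and 0.14). For these 3 genes the lowest cKO heart was above the highest control heart.

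**Figure D3:**
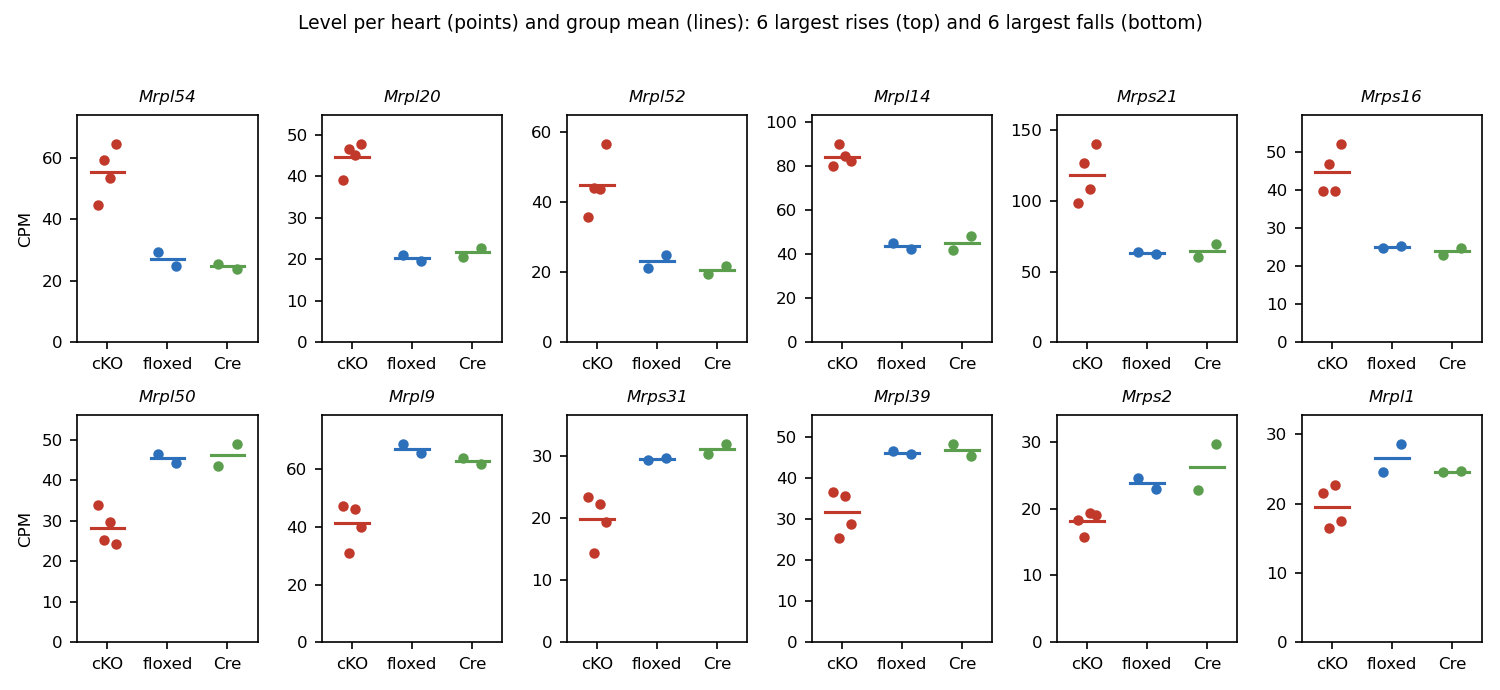
CPM per heart (points) and group means (lines) of the 6 mitochondrial ribosomal protein genes with the largest rises (top row) and the 6 with the largest falls (bottom row) in cKO hearts, with cKO, floxed and Cre from left to right and y axes that start at 0. In each of the 12 panels all 4 cKO hearts lie on the same side of all 4 control hearts, which the rule for choosing these genes required. The means of the fit are at most 2.14-fold apart (Mrpl54).

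The stalk of the large subunit, which recruits translation factors, did not move as a block. Mrpl12, the homologue of the bacterial stalk protein L7/L12, had 159, 179.9, 189 and 222 CPM in cKO hearts, against 126 and 134 CPM in floxed and 125 and 127 CPM in Cre hearts (log2 fold change 0.55, SE 0.11, edgeR adjusted p = 0.00145). Mrpl11, at the stalk base, had 39.7, 45.9, 47 and 51.4 CPM in cKO hearts, against 29.3 and 27.7 CPM in floxed and 28.2 and 31.6 CPM in Cre hearts (log2 fold change 0.66, SE 0.10, edgeR adjusted p = 0.000246). Both were higher in every cKO heart. Mrpl10, which anchors the stalk, had 36.8, 31.3, 39.6 and 43.9 CPM in cKO hearts, against 45.7 and 44.6 CPM in floxed and 41.9 and 44.5 CPM in Cre hearts (log2 fold change -0.22, SE 0.11, edgeR adjusted p = 0.1), and its groups overlapped; without cKO replicate 4 it was called lower (-0.30). Mrpl11 stayed called higher with both offsets (0.74 and 0.82), Mrpl12 was not called with either (0.05 with both), and Mrpl10 was called lower with both (-0.50 and -0.44).

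Of the other genes with a bacterial homologue, Mrpl9, Mrpl1 and Mrpl3 were the 3 that fell. Mrpl9 (ENSMUSG00000028140, GRCm38 chromosome 3, 94443318 to 94451130, plus strand) had 47.3, 31.1, 46.4 and 40.0 CPM in cKO hearts, against 68.6 and 65.5 CPM in floxed and 63.9 and 61.8 CPM in Cre hearts (log2 fold change -0.66, SE 0.12, edgeR adjusted p = 0.0012; 1.58-fold lower), and it was called lower with both offsets. Mrpl1 (ENSMUSG00000029486, GRCm38 chromosome 5, 96209493 to 96266727, plus strand), whose bacterial counterpart forms the other, L1 stalk near the exit site for transfer RNA, had 21.5, 16.5, 22.6 and 17.5 CPM in cKO hearts, against 24.6 and 28.5 CPM in floxed and 24.5 and 24.7 CPM in Cre hearts (log2 fold change -0.39, SE 0.12, edgeR adjusted p = 0.0179). Its groups did not overlap, but the call was lost with either offset, without cKO replicate 2 (-0.31) and without floxed replicate 2 (-0.34), and under upper-quartile scaling or library size alone. Mrpl3, a gene in which human mutations cause a mitochondrial cardiomyopathy, had 68.8, 58.9, 55.7 and 57.3 CPM in cKO hearts, against 78.6 and 75.1 CPM in floxed and 74.1 and 81.5 CPM in Cre hearts (log2 fold change -0.36, SE 0.09, edgeR adjusted p = 0.00641). The Mrpl3 call was lost with both offsets (-0.16 and -0.08) and with library size alone (-0.23). Mrpl4, the counterpart of a protein that lines the exit tunnel in bacteria, was not called at 73, 62.9, 82.9 and 77 CPM in cKO hearts, against 65.6 and 64.7 CPM in floxed and 61.8 and 67.9 CPM in Cre hearts (log2 fold change 0.19, SE 0.10, edgeR adjusted p = 0.127); without cKO replicate 2 it was called higher (0.26). Mrpl32 is the large-subunit protein that the m-AAA protease must process before assembly, as shown in yeast and mouse. It had 16.2, 11.9, 15.9 and 15.6 CPM in cKO hearts, against 16 and 17.5 CPM in floxed and 15 and 15.5 CPM in Cre hearts (log2 fold change -0.10, SE 0.12, edgeR adjusted p = 0.497), and its sign was positive under upper-quartile scaling, library size alone and both offsets. Mrpl34 had 53.9, 52.6, 64.3 and 66.8 CPM in cKO hearts, against 45.1 and 42.5 CPM in floxed and 47.3 and 51.4 CPM in Cre hearts (log2 fold change 0.35, SE 0.10, edgeR adjusted p = 0.0113); the call was lost without floxed replicate 2 (0.32), and with the offsets Mrpl34 was called lower (-0.50 and -0.61). The 12 other genes of this group that were called higher spanned 0.22 to 0.84: Mrpl23, Mrpl55, Mrpl33, Mrpl24, Mrpl30, Mrpl17, Mrpl27, Mrpl13, Mrpl2, Mrpl36, Mrpl15 and Mrpl16. The 6 others that were not called, Mrpl22, Mrpl18, Mrpl21, Mrpl47, Mrpl35 and Mrpl19, lay between -0.22 and 0.30.

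Among the 21 large-subunit genes specific to mitochondria, 9 were higher, 2 lower and 10 not called (median 0.21). With the offset on the longest transcript, 7 were higher and 7 lower (median -0.10). Without an offset, the largest rise of all 78 genes and the largest fall were both in this group. Mrpl54 (ENSMUSG00000034932, GRCm38 chromosome 10, 81264713 to 81266934, minus strand) had 44.7, 59.1, 53.3 and 64.4 CPM in cKO hearts, against 29.4 and 24.8 CPM in floxed and 25.4 and 24 CPM in Cre hearts (log2 fold change 1.10, SE 0.12, edgeR adjusted p = 4.82e-05; 2.14-fold). Mrpl52 (ENSMUSG00000010406, GRCm38 chromosome 14, 54426909 to 54429756, plus strand), whose promoter window above holds 2 ETS cores, had 35.8, 43.9, 43.5 and 56.4 CPM in cKO hearts, against 21.2 and 25 CPM in floxed and 19.6 and 21.8 CPM in Cre hearts (log2 fold change 1.04, SE 0.13, edgeR adjusted p = 0.000112; 2.06-fold). In both genes the highest cKO heart was replicate 4 and the lowest replicate 1, and all cKO hearts were above all controls. Mrpl54 was not called with the offset on the longest transcript (0.17), and neither gene was called with the offset on the principal transcript (0.05 for Mrpl54 and 0.04 for Mrpl52).

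Mrpl50 (ENSMUSG00000044018, GRCm38 chromosome 4, 49512596 to 49521093, minus strand) had 33.9, 25.3, 29.7 and 24.3 CPM in cKO hearts, against 46.6 and 44.4 CPM in floxed and 43.6 and 49 CPM in Cre hearts (log2 fold change -0.70, SE 0.11, edgeR adjusted p = 0.000447; 1.62-fold lower). Mrpl39 (ENSMUSG00000022889, GRCm38 chromosome 16, 84717576 to 84735742, minus strand), whose window holds the NRF1 motif, had 36.5, 25.3, 35.6 and 28.8 CPM in cKO hearts, against 46.5 and 45.7 CPM in floxed and 48.1 and 45.3 CPM in Cre hearts (log2 fold change -0.56, SE 0.12, edgeR adjusted p = 0.00241; 1.47-fold lower). Both were lower in every cKO heart, and both kept their call and nearly their size with the offsets (Mrpl50 -0.70 and -0.63, Mrpl39 -0.56 and -0.50). Mrpl44, in which human mutations cause hypertrophic cardiomyopathy, had 37.3, 27.6, 40.0 and 32.6 CPM in cKO hearts, against 42.7 and 38.7 CPM in floxed and 39.6 and 42.1 CPM in Cre hearts (log2 fold change -0.24, SE 0.12, edgeR adjusted p = 0.098) and overlapping groups. It was called lower with both offsets (-0.56 and -0.50), and also without cKO replicate 3 (-0.32).

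Mrpl58 encodes a peptidyl-tRNA hydrolase that became a part of the large subunit. It had 48, 51, 54.3 and 58.6 CPM in cKO hearts, against 35.3 and 33.6 CPM in floxed and 31.9 and 35.6 CPM in Cre hearts (log2 fold change 0.64, SE 0.09, edgeR adjusted p = 0.000189) and stayed called higher with both offsets (0.63 and 0.71). Mrpl53 had 50.8, 46.1, 52.2 and 51.8 CPM in cKO hearts, against 36.3 and 38.9 CPM in floxed and 35.6 and 36.7 CPM in Cre hearts (log2 fold change 0.45, SE 0.08, edgeR adjusted p = 0.000891), with a negative sign under both offsets (-0.21 and -0.26, called lower with the second). The exons of Mrpl53 overlap those of 2 other genes over 88% of their bases, Gm42688 on the same strand and Ccdc142os on the opposite one. How the counting split reads among them is not given in the sources used here, so the Mrpl53 values are uncertain. Mrpl57, Mrpl51, Mrpl48 and Mrpl41 were called higher with log2 fold changes of 0.24 to 0.66. The 8 remaining genes of this group that were not called, Mrpl46, Mrpl42, Mrpl43, Mrpl40, Mrpl38, Mrpl37, Mrpl49 and Mrpl45, lay between -0.20 and 0.23.

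In the small subunit, 14 of the 16 genes with a bacterial homologue were higher, 1 was lower and 1 was not called (median 0.47). With the offset on the longest transcript, 8 of them were higher and 1 lower (median 0.25). Mrps21 (ENSMUSG00000054312, GRCm38 chromosome 3, 95862634 to 95871519, minus strand) had 98.6, 127, 108 and 140.2 CPM in cKO hearts, against 64 and 62.4 CPM in floxed and 60.4 and 69.5 CPM in Cre hearts (log2 fold change 0.89, SE 0.12, edgeR adjusted p = 0.000128; 1.85-fold). Mrps16 (ENSMUSG00000049960, GRCm38 chromosome 14, 20389304 to 20393634, minus strand), in which a human mutation causes a fatal mitochondrial disease, had 40.0, 47, 39.9 and 52.2 CPM in cKO hearts, against 24.8 and 25.3 CPM in floxed and 23.1 and 24.8 CPM in Cre hearts (log2 fold change 0.87, SE 0.10, edgeR adjusted p = 7.84e-05; 1.83-fold). The lowest cKO heart was well above the highest control heart in both genes. They parted under the offsets: Mrps16 stayed called higher (0.92 and 1.00), and Mrps21 was not called (0.22 and 0.12).

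Mrps12, the homologue of the decoding-centre protein S12, had 32.2, 37.6, 37 and 44.4 CPM in cKO hearts, against 25.9 and 22.8 CPM in floxed and 22 and 23.5 CPM in Cre hearts (log2 fold change 0.68, SE 0.11, edgeR adjusted p = 0.000388). With the offset on the longest transcript it was at 0.01 and with that on the principal transcript at -0.24, where it was called lower. Mrps14, also a gene of human cardiomyopathy, had 40.7, 42.3, 45 and 42.5 CPM in cKO hearts, against 31.3 and 33.2 CPM in floxed and 30.5 and 34.1 CPM in Cre hearts (log2 fold change 0.40, SE 0.08, edgeR adjusted p = 0.00178) and stayed called with both offsets (0.53 and 0.61). Mrps28 had 39.5, 36.4, 40.4 and 43.5 CPM in cKO hearts, against 34.4 and 27.8 CPM in floxed and 27.5 and 23.3 CPM in Cre hearts (log2 fold change 0.50, SE 0.10, edgeR adjusted p = 0.00187), with a negative sign and no call under both offsets (-0.14 and -0.18). Mrps2 (ENSMUSG00000035772, GRCm38 chromosome 2, 28468066 to 28471178, plus strand), the homologue of bacterial S2, was the 1 gene of this group that fell, with 18.3, 15.8, 19.3 and 19 CPM in cKO hearts, against 24.6 and 22.9 CPM in floxed and 22.7 and 29.6 CPM in Cre hearts (log2 fold change -0.46, SE 0.11, edgeR adjusted p = 0.00535; 1.38-fold lower). All 4 cKO hearts were below all 4 controls for Mrps2, and the call held with both offsets (-0.49 and -0.47). Mrps24, Mrps6, Mrps7, Mrps15, Mrps11, Mrps17, Mrps10 and Mrps9 were also called higher, at 0.28 to 0.85, and Mrps5 was not called at -0.06.

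The 10 small-subunit genes specific to mitochondria held 6 that were higher, 2 lower and 2 not called (median 0.42). With the offset on the longest transcript, 6 were higher and 3 lower (median 0.28). Mrps31 (ENSMUSG00000031533, GRCm38 chromosome 8, 22411361 to 22429665, plus strand) had 23.3, 14.4, 22.2 and 19.3 CPM in cKO hearts, against 29.3 and 29.6 CPM in floxed and 30.3 and 31.9 CPM in Cre hearts (log2 fold change -0.61, SE 0.14, edgeR adjusted p = 0.00327; 1.53-fold lower), with no overlap and a call under both offsets (-0.53 and -0.68). Mrps22, mutated in a human disease with cardiomyopathy, was not called, at 12.9, 7.21, 12 and 9.29 CPM in cKO hearts, against 14.1 and 14.3 CPM in floxed and 11.8 and 13.7 CPM in Cre hearts (log2 fold change -0.38, SE 0.17, edgeR adjusted p = 0.0785). Its groups overlapped, and it was called lower without cKO replicate 1 (-0.51), without a filter on low counts (-0.40) and with the offset on the principal transcript (-0.56). Mrps27 was the other gene that fell (-0.39), Mrps23 was not called (-0.05), and Mrps34, Mrps26, Mrps33, Mrps35 and Mrps25 were higher at 0.37 to 0.80. The exons of Mrps34 and Mrps25 overlap those of other genes over 77.8% and 69.8% of their bases.

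Mrps18a, Mrps18b and Mrps18c are paralogues that all descend from bacterial S18, and the first sits in the large subunit. Mrps18a had 55.2, 66, 70.0 and 59.1 CPM in cKO hearts, against 35.6 and 38.2 CPM in floxed and 32.3 and 40.8 CPM in Cre hearts (log2 fold change 0.77, SE 0.11, edgeR adjusted p = 0.000169). Mrps18b had 34.4, 34.9, 31.8 and 36.6 CPM in cKO hearts, against 19.5 and 19.3 CPM in floxed and 20.2 and 24.4 CPM in Cre hearts (log2 fold change 0.73, SE 0.09, edgeR adjusted p = 0.000104). Mrps18c had 20.4, 19.4, 22.6 and 22.4 CPM in cKO hearts, against 14 and 16.9 CPM in floxed and 16.5 and 17.7 CPM in Cre hearts (log2 fold change 0.39, SE 0.10, edgeR adjusted p = 0.00826). All 3 had each cKO heart above all control hearts. Mrps18b alone of the 3 stayed called higher with both offsets (0.29 and 0.31). Mrps18a was called with the offset on the longest transcript (0.48) but not with the other (0.08). Mrps18c was called with neither (0.04 and -0.12), and its call without an offset was lost without floxed replicate 1 (0.32). Mrps30, the other large-subunit protein with an Mrps name, had 28.2, 24.8, 32.5 and 28.7 CPM in cKO hearts, against 35.9 and 33.7 CPM in floxed and 29.9 and 31.2 CPM in Cre hearts (log2 fold change -0.19, SE 0.10, edgeR adjusted p = 0.119) and overlapping groups, with its sign positive but near 0 under the offsets (0.0038 and 0.05). Mrps36, the gene of the oxoglutarate dehydrogenase component, had 68.2, 69.7, 75.3 and 75.9 CPM in cKO hearts, against 51.3 and 51.2 CPM in floxed and 49.9 and 53.7 CPM in Cre hearts (log2 fold change 0.49, SE 0.08, edgeR adjusted p = 0.000447) and lost its call with either offset (0.06 and 0.01).

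The floxed group carries the alleles without Cre and the Cre group the transgene without the alleles, and cKO hearts were also set against each alone. Against floxed hearts, 44 of the 78 genes were higher and 8 lower (median log2 fold change 0.38; 42.9% of all tested genes were called, 19.8% higher and 23.1% lower). Against Cre hearts, 41 were higher and 7 lower (median 0.34; 42.4% of all genes called, 19.6% higher and 22.8% lower). These comparisons share the 4 cKO libraries, so they are not independent. With library size alone in place of TMM, 48 were higher and 2 lower against floxed hearts. That scaling also moved the median log2 fold change of all tested genes against floxed hearts, from 0.04 to 0.19. The share of all tested genes called under it is not given here. With 1 floxed library the count of calls was smaller, at 30 without floxed replicate 1 and 32 without floxed replicate 2. With the offset on the longest transcript, 26 were higher and 13 lower against floxed (36.1% of all genes called, 15.7% higher and 20.4% lower), and 29 higher and 13 lower against Cre (34.5% called, 14.8% higher and 19.7% lower).

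The values against each control group stand side by side for the largest changes. Mrpl54 had log2 fold changes of 1.03 against floxed and 1.16 against Cre, Mrpl20 of 1.13 and 1.04, and Mrps21 of 0.91 and 0.87. Mrpl50 was at -0.69 against floxed and -0.71 against Cre, and Mrpl9 at -0.70 and -0.61. A few genes of smaller change were called against 1 control group: Mrpl34 was at 0.44 against floxed (edgeR adjusted p = 0.0147) and 0.27 against Cre (adjusted p = 0.0993), Mrps18c at 0.46 (0.0135) and 0.31 (0.0655), and Mrpl1 at -0.44 (0.0276) and -0.33 (0.0852), with adjusted p in brackets. The difference of each such pair is the comparison of Cre with floxed hearts, in which none of these genes was called.

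Between Cre and floxed hearts, 0 of the 78 genes were called by edgeR, DESeq2 or limma voom, and 0 had an unadjusted p under 0.05 in edgeR (0.0981% of all tested genes were called and 3.44% had such an unadjusted p). The log2 fold changes lay between -0.29 (Mrps28) and 0.20 (Mrps18b), with a median of -0.0016. Mrps28 averaged 25.4 CPM in Cre and 31.1 CPM in floxed hearts. With 2 hearts in each group, differences of this size were not detectable.

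Gene length went along with the direction of the difference, among these genes and among all coding genes. The principal transcripts of the 78 genes had a median length of 1302 bp, against 3007 bp for all tested coding genes. Genes called higher had a median of 1025 bp, genes not called 1418 bp and genes called lower 2097 bp. Spearman's rho across genes (points that are not independent of each other) between the log2 fold change and the principal length was -0.48 over the 78 genes and -0.41 over tested coding genes. With the longest annotated transcript it was -0.34 and -0.40, and with GC content 0.35 and 0.34. All points of such a rho come from the same 8 libraries. Under the longest-transcript offset, rho with that transcript's length was 0.39 over the 78 genes and -0.05 over coding genes, and rho with GC content -0.32 and 0.04. That offset thus turned the trend round among the 78 genes, and a call of a gene with a long annotated transcript under it (Mrpl17, 7300 bp, 0.96) has to be read with this in view. No rho was computed under the offset on the principal transcript, so the same limit may hold there. The largest values under it were those of Mrpl17 (7300 bp, 1.00), Mrps16 (2572 bp, 1.00) and Mrps26 (4278 bp, 0.97). The smallest were those of Mrpl9 (1612 bp, -0.85) and Mrps31 (1515 bp, -0.68).

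By length class, the medians of the genes and of all coding genes were as follows, with no test of their difference. Of 25 genes with a principal transcript under 1000 bp, 23 were higher and 0 lower (median 0.68), against 70.4% higher and 3.6% lower among 805 coding genes of that length (median 0.73). Of 28 genes of 1000 to under 2000 bp, 12 were higher and 3 lower (median 0.19), against 41.1% and 10.3% of coding genes (median 0.31). Of 9 genes of 2000 to under 3000 bp, 5 were higher and 3 lower (median 0.39), against 25.5% and 25% (median 0.06). Of 13 genes of 3000 to under 5000 bp, 6 were higher and 2 lower (median 0.01), against 17.6% and 35.3% (median -0.12). The last class held 3 genes of 5000 bp or more, 2 of them higher and 0 lower (median 0.37), against 9.16% and 48% of 2642 coding genes (median -0.32). The median of the 78 genes was below that of coding genes in the 2 shorter classes and above it in the 3 longer ones, which hold few genes. The share called higher was above that of coding genes in every class (92%, 42.9%, 55.6%, 46.2% and 66.7% from the shortest to the longest).

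**Figure D4:**
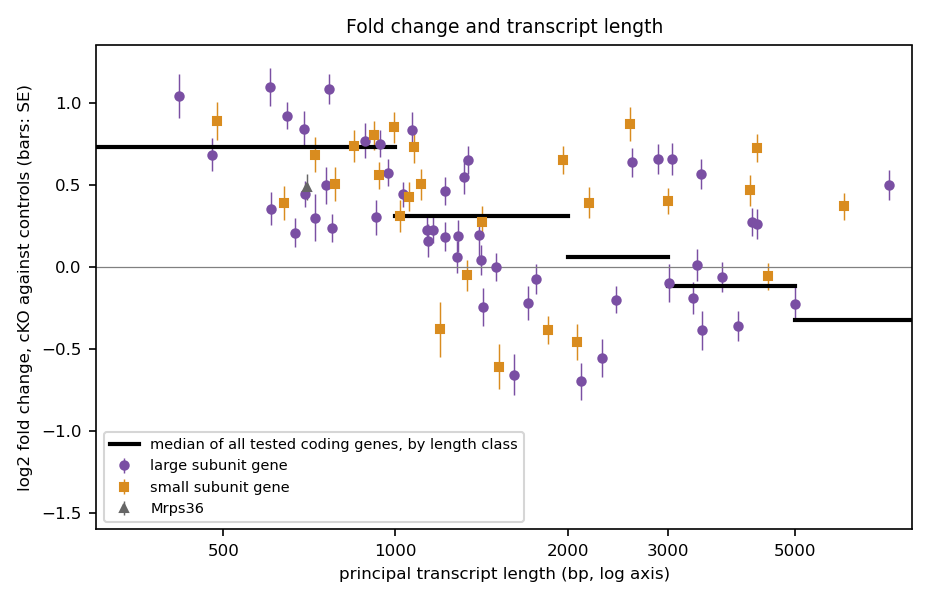
Log2 fold change in cKO against the mean of floxed and Cre hearts (y axis, bars SE, no offset) against the length of the principal transcript (x axis, log scale) for the 78 genes, with large-subunit genes as circles, small-subunit genes as squares and Mrps36 as a triangle. Black lines give the median of all tested coding genes in 5 length classes, drawn to the plot's edges for the shortest and longest; they step down between 0.73 and -0.32, and the 25 genes under 1000 bp lie around their line.

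Which genes stayed called depended on how length and GC content were treated. A total of 21 genes were called higher and 6 lower without an offset and with both offsets. The share of all tested genes that kept a call in this way was not computed, so these counts have no background beside them. The 21 include genes with long transcripts, such as Mrpl17 (7300 bp), to which the limit of the offsets given above applies. The 6 lower ones were Mrpl50, Mrpl9, Mrps31, Mrpl39, Mrps2 and Mrps27. Among the 21 higher ones were Mrpl20, Mrps16, Mrpl11, Mrpl58, Mrps14 and Mrps18b, described above. Genes called higher without an offset but lower with one numbered 2 on the longest transcript (Mrpl34 and Mrpl41) and 5 on the principal transcript (the same 2, Mrps12, Mrpl53 and Mrpl2). No gene called lower became higher. With the offset on the longest transcript 45.2% of all tested genes were called (21.3% higher and 24% lower), and with that on the principal transcript 44.5% (20.9% higher and 23.6% lower). The longest annotated transcript was over 2 times the principal one for 11 of the 78 genes.

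**Figure D5:**
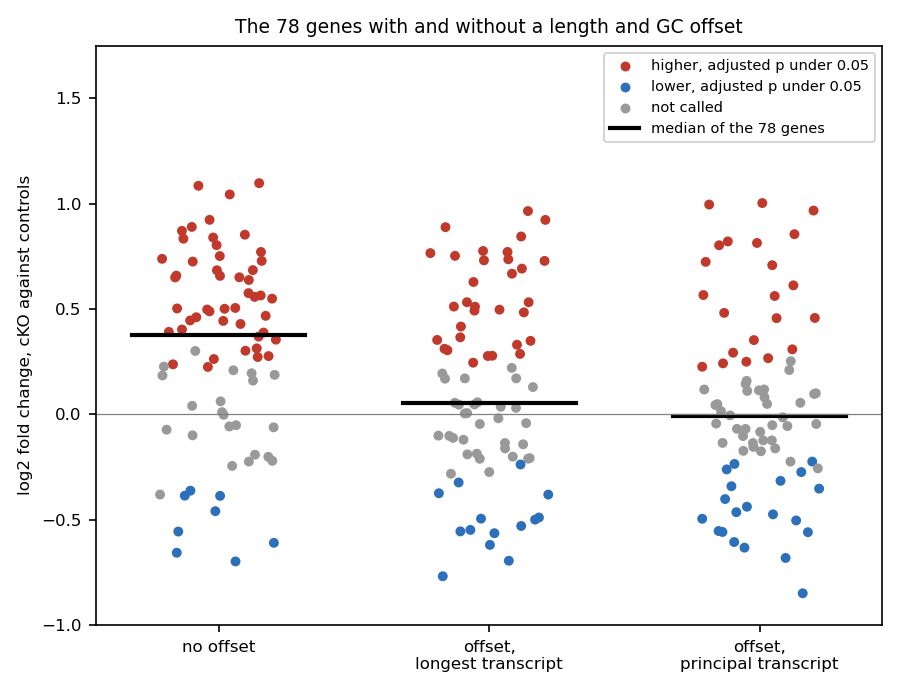
Log2 fold change of the 78 genes in cKO against the mean of floxed and Cre hearts (y axis) without an offset, with a length and GC offset on the longest transcript and with one on the principal transcript (left to right); points are genes, spread sideways for legibility. Red points were called higher, blue lower and grey not called, and black lines are the medians of 0.38, 0.06 and -0.01.

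Within the cKO group, the hearts kept an order in many of the genes. Replicate 4 had the highest level of the 4 cKO hearts for 36 of the 78 genes and replicate 3 for 25. Replicates 1 and 2 each had the lowest level for 33. Transcripts of the mitochondrial genome made up 22.1%, 29.3%, 22.4% and 22.6% of counts in cKO replicates 1 to 4, against 25.5% to 29.1% in controls. Without any 1 library, 39 genes remained called higher and 7 lower. The share of all tested genes that kept a call in this way was not computed, so these 2 counts have no background beside them. Totals were 17509564 to 24580953 estimated counts in cKO libraries and 21713560 to 25833259 in control libraries.

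Other genes of the mitochondrial ribosome and of its assembly were taken from the same comparison, in which 25.6% of all tested genes were higher and 26.5% lower (21.3% and 24% with the offset on the longest transcript). Among 5 subunit genes without an Mrp name, Aurkaip1 (0.63), Chchd1 (0.60) and Gadd45gip1 (0.55) were higher, Ptcd3 was lower (-0.70), and Dap3 was not called (0.04; median of the 5 genes 0.55). Only Ptcd3 of these 5 was called with the offset on the longest transcript. Among 27 genes of ribosome assembly and ribosomal RNA processing, 5 were higher and 9 lower (median -0.01), so 14 of 27 were called, beside 52.1% of all tested genes. Under the longest-transcript offset 3 were higher and 13 lower (median -0.21). The 4 called with the smallest p were all lower: the m-AAA protease subunit Afg3l2 (-1.03), the ribosomal RNA methyltransferases Mettl15 (-0.97) and Nsun4 (-0.51), and the GTPase Gtpbp10 (-0.72). Afg3l2, which processes Mrpl32 protein, had 77.7, 54.3, 76.5 and 61.9 CPM in cKO hearts, against 139.6 and 138 CPM in floxed and 126 and 148 CPM in Cre hearts.

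Most mitochondrial translation factors were lower. Of 15 tested, 10 were lower and 1 higher (median -0.55), beside 26.5% lower and 25.6% higher among all tested genes. Under the same offset 10 were lower and 2 higher, beside 24% and 21.3%. Their summed level was 569 to 675 CPM in cKO hearts, against 868 to 965 CPM in controls. The initiation factor Mtif2 (-1.27), the messenger RNA binding protein Lrpprc (-1.24) and the elongation factor Gfm1 (-1.25) fell, while Slirp, the partner of Lrpprc, rose (0.79). Lrpprc had 93.5, 68.6, 84.1 and 68.5 CPM in cKO hearts, against 195 and 189.8 CPM in floxed and 175 and 186 CPM in Cre hearts, and Slirp had 54.4, 61.2, 59.9 and 55 CPM in cKO hearts, against 30.8 and 34.2 CPM in floxed and 32.2 and 36.1 CPM in Cre hearts. Taco1, a translational activator of a cytochrome oxidase subunit, was picked after its values were seen as the largest fall of the list (5.54-fold; log2 fold change -2.47, SE 0.26, edgeR adjusted p = 0.000103).

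The RNAs of the ribosome itself were also counted. The small-subunit RNA mt-Rnr1 had 2392, 3766, 2401 and 3588 CPM in cKO hearts, against 1425 and 1524 CPM in floxed and 1379 and 1620 CPM in Cre hearts (log2 fold change 1.03, SE 0.16, edgeR adjusted p = 0.000445). The large-subunit RNA mt-Rnr2 had 3548, 6748, 3409 and 6196 CPM in cKO hearts, against 3174 and 3317 CPM in floxed and 2679 and 3522 CPM in Cre hearts (log2 fold change 0.65, SE 0.24, edgeR adjusted p = 0.0441). The groups did not overlap for mt-Rnr1 and overlapped for mt-Rnr2, and mt-Rnr2 was not called with the offset (adjusted p = 0.0857). In both RNAs cKO replicates 2 and 4 were the highest libraries. How ribosomal RNA was handled in library preparation is not given in the sources used here, and its part in these levels was not tested.

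The hearts were bulk tissue, so fewer cells of a type and less RNA per cell cannot be told apart. Summed levels of 8 cardiomyocyte markers were 48690 to 56540 CPM in cKO hearts and 53730 to 57890 CPM in controls, with overlapping ranges, but single markers went both ways. Of the 8, 3 were called higher and 2 lower (log2 fold changes -1.34 to 0.69), and with the offset on the longest transcript 0 were higher and 3 lower. The 5 macrophage markers summed to 120 to 158 CPM in cKO hearts, against 76.9 to 88.0 CPM in controls, and 4 of the 5 were called higher (3 with the offset; 25.6% and 21.3% of all tested genes). The 5 fibroblast markers summed to 341 to 484 CPM in cKO hearts, against 231 to 351 CPM in controls, with 1 called higher (2 with the offset). Endothelial markers spanned 524 to 639 CPM in cKO and 532 to 611 CPM in controls, smooth muscle and pericyte markers 466 to 756 CPM in cKO and 578 to 655 CPM in controls, and erythroid markers 510 to 1348 CPM in cKO and 500 to 776 CPM in controls. Lymphocyte markers summed to at most 2.74 CPM in any heart, adipocyte markers to at most 48.3 CPM and Schwann markers to at most 14.1 CPM. No marker list had a gene at 0 in every library of a group. The part of these cell types in the levels of the mitochondrial ribosomal protein genes was not tested.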

How the data were processed

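The authors deposited 1 table of gene-level estimated counts (expected counts), for which the submitters' processing notes list STAR 2.5.1b, DESeq2, mm10 and GRCm38 without their roles; which program estimated the counts, with what annotation and strand setting, is not given in the sources used here. Of the values above 0, 71.95% to 76.34% per library were whole (tolerance 1e-06), and all were rounded before testing. Columns were assigned by the library name in the labels, and groups by the sample titles. The fit was edgeR 4.0.16 (R 4.3.3), with filterByExpr, TMM, 8 libraries, 3 group means, robust quasi-likelihood tests and Benjamini-Hochberg adjustment at 0.05 over 15289 genes. Totals were 17509564 to 25833259 estimated counts per library. SE came from the test statistic, and CPM values use TMM factors. Symbols, exons and lengths came from GENCODE M21, in which 563 identifiers had no symbol. The offset is a smooth function (mgcv 1.9.3) of log2 length and GC content per library, with values for 15216 tested genes (99.52%) on the longest transcript. The offset on the APPRIS principal transcript was chosen after seeing the data.

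Alternatives were other scalings, DESeq2 1.42.0, limma 3.58.1 voom, other filters, a fit without robust dispersion, the offsets, a replicate block, pooled controls, only the compared groups, a size threshold, members without overlapping exons and leaving out libraries. The replicate numbers are not stated to mark a shared litter, day or batch. Genes named with values in every library were the 6 largest rises and 6 largest falls among called genes with a mean of at least 1 CPM and no overlap, genes called between Cre and floxed (0), 16 genes preset by role, and up to 8 whose call or sign changed most with the offset on the longest transcript. From the other gene lists up to 4 called genes of smallest p were named, with exceptions said where they appear. The genes, lists and rules were chosen with earlier results of these data known. The list symbol Mtrfr had no match. Figures were drawn with matplotlib.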

Additional observations from a re-analysis of the deposited data

Results flagged for a closer look

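In 7 of 83 items tested, 1 cKO heart stood apart from the other 3, by a gap to the nearest of them that took up most of the group's range (Dixon's test at 95%); chance alone flags about 1 in 20, or 4.2 items. Mrpl16 was at 50.95 CPM in cKO replicate 3, against 46.6 to 47.2 CPM in the other cKO hearts. In the same heart Mrpl42 was at 218.9 CPM (others 190 to 193) and Mrpl49 at 30.35 CPM (others 26.0 to 26.6). Mrpl27 was at 40.56 CPM in cKO replicate 4 (others 30.4 to 30.9). In cKO replicate 2, Mrpl32 was at 11.91 CPM (others 15.6 to 16.2), Mrps23 at 95.1 CPM (others 107 to 110) and the share of mitochondrial genome transcripts at 29.29% (others 22.1% to 22.6%). Without cKO replicate 2, 51 mitochondrial ribosomal protein genes were called higher and 7 lower against the mean of both control groups, with 48 and 8 in all libraries. The share of all tested genes called without that library is not given here, so the counts of 51 and 7 have no background beside them.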

How the results depend on the processing

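The median of the 78 genes stayed above 0 in cKO against both control groups, floxed and Cre under every scaling, test, filter, block and left-out library tried, and turned below 0 only with the offset on the principal transcript (-0.0100 against both control groups, -0.0145 against floxed, -0.00246 against Cre). Upper-quartile scaling moved the median of all tested genes to 0.16, library size alone to 0.17 and no filter to 0.11; the median of the 78 genes was then 0.49, 0.51 and 0.36. Counts of called genes were 56, 52 and 48 in cKO against both control groups, floxed and Cre. Leaving out each library gave 47 to 58, 30 to 54 and 35 to 51, and 0 to 0 for Cre against floxed. A minimum absolute log2 fold change of 0.5 gave 33 against both control groups and 33 against floxed. Without members that share exons or have a named pseudogene, 31 of 43 were called in the same fit (72.1%, against 71.8% of all 78). The offset on the principal transcript gave 30 against floxed. The shares of all tested genes called under these other settings are not given beside the counts.

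The replicate numbers of the sample titles were the only ones used as a block. For same-numbered libraries, the correlations of deviations from the group means were 0.13 and -0.095 between cKO and floxed. They were -0.10 and -0.00082 between cKO and Cre, and -0.020 between floxed and Cre. In a control group of 2 hearts the deviations mirror each other, so these few values cannot show whether the hearts were paired. The library names number the floxed hearts differently, and by them the correlations were 0.095 (cKO replicate 2 with floxed replicate 1) and 0.13 (cKO replicate 3 with floxed replicate 2). With the replicate block the counts were 47, 40 and 41, and cKO replicates 3 and 4 then add nothing to the contrasts. The block with the offset on the longest transcript gave 37 against both control groups and 31 against floxed.

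Signs of named genes changed as follows, and the cause was not tested. Mrpl32 was at 0.013 with upper-quartile scaling and 0.034 with library size alone. With the offset on the longest transcript, Mrpl32 was at 0.031, Mrpl34 at -0.50, Mrpl4 at -0.11, Mrpl53 at -0.21, Mrps28 at -0.14 and Mrps30 at 0.0038. With the offset on the principal transcript, Mrpl14 was at -0.046, Mrpl32 at 0.11, Mrpl34 at -0.61, Mrpl4 at -0.46, Mrpl53 at -0.26, Mrps12 at -0.24, Mrps18c at -0.12, Mrps28 at -0.18 and Mrps30 at 0.048. With the replicate block and the offset together, Mrpl12 was at -0.022, Mrpl34 at -0.57, Mrpl4 at -0.17, Mrpl53 at -0.19, Mrps12 at -0.032, Mrps18c at -0.019 and Mrps28 at -0.14. The lowest count of a gene in a library was 146, and each control group held 2 hearts; both limit the precision, and their shares in the SE were not compared.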

Other observations

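Named pseudogenes of 3 of the genes were also in the table. Mrpl23-ps1 summed to 238 estimated counts over the 8 libraries, Mrpl48-ps to 22.4, Mrps36-ps1 to 13.2 and Mrps36-ps2 to 14.8, while Mrps36-ps3 was at 0 in every library. Exons of 33 of the 78 genes overlap those of another gene, over 50% of exon bases in 3 (Mrpl53, Mrps34 and Mrps25). Among the 43 genes with neither an overlap nor a named pseudogene, 26 were higher and 5 lower in cKO hearts than in the mean of the control groups, with a median log2 fold change of 0.31.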
